A study of Mus musculus with 100 samples.

Results

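The imprinted cluster described here consists of 4 genes on mouse chromosome 17: Igf2r, Airn, Slc22a2 and Slc22a3. They were chosen by name and stand among the 25965 genes of the expression table. RNA was sequenced from 18 libraries, 3 replicates in each of 6 groups. Female MEFs are fibroblasts of a mid-gestation embryo from a cross of an i4F-BL6 mother with a CAST father. F KSR2 and F KSR4 are female, and M KSR3 and M KSR5 male, iPSC lines that were reprogrammed from such MEFs with doxycycline in medium with Knockout Serum Replacement (KSR). The mother's genome carried a doxycycline-inducible cassette with Oct4, Sox2, Klf4 and c-Myc, so the MEFs and the 4 iPSC lines share this transgene. Each iPSC line is 1 clone, MEFs of 1 female embryo were collected, and the iPSCs were kept with LIF, without doxycycline and on feeder cells. TX 2i ESCs are TX1072, a female ESC line kept in serum medium with LIF and inhibitors of MEK and GSK3. Their base medium thus differs from that of the iPSCs. TX1072 also had a BL6 mother and a CAST father. All 6 groups therefore descend from a BL6 mother and a CAST father, and in the absence of the reverse cross the parent and the strain of an allele cannot be told apart. No male MEFs were sequenced, so for M KSR3 and M KSR5 the difference from MEFs also includes sex. Whether the replicates of a line were separate cultures is not stated, so the p-values measure the spread between these libraries.

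Igf2r encodes the receptor for IGF2 and mannose-6-phosphate, which carries IGF2 to the lysosome for degradation and sorts newly made lysosomal enzymes. In mouse tissues it is transcribed from the maternal allele. Airn is a long noncoding RNA that is transcribed from the paternal allele, antisense to Igf2r, from a start within an Igf2r intron. On the maternal allele the CpG island at that start carries DNA methylation from the egg, Airn is silent, and Igf2r is transcribed. On the paternal allele the island is free of methylation, and Airn transcription across the Igf2r promoter silences Igf2r. Slc22a2 and Slc22a3 encode organic cation transporters that are imprinted in the placenta through the same element.

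The positions of the 4 genes were those of the expression table, on GRCm38. Igf2r lay on the minus strand at chr17:12682406-12769664 and Airn on the plus strand at chr17:12741311-12860122. Slc22a2 lay on the plus strand at chr17:12584189-12628465 and Slc22a3 on the minus strand at chr17:12419972-12507704. In the GENCODE M21 annotation of the same build, Igf2r has 48 exons. The first base of Airn falls in Igf2r intron 2, which runs from 12740407 to 12748643 between exons 2 and 3, 28353 bases downstream of the annotated Igf2r start. Reads were counted by strand on annotated mRNA, so the Airn values come from its exons, which make up 435 to 1375 bases of its 6 annotated transcripts, although the longest spans 118826 bases of the genome.

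The promoters of Igf2r and Airn are shown because the imprint of the cluster is DNA methylation of CpGs at the Airn start, and the CpGs are in capitals (CG, which reads the same on both strands). The Igf2r promoter from RefSeq (GRCm38.p6, chr17:12769657-12769956, minus strand) held 34 CpGs in 300 bases, and 7.73% of all 32851 promoters in that set held as many or more, with a median of 7. The Airn promoter (chr17:12741061-12741360, plus strand) held 3 CpGs, and 76.7% of promoters held as many or more. The third sequence is the 300-base window with the most CpGs in Igf2r intron 2 (chr17:12741732-12742031, plus strand). It lies 421 to 720 bases downstream of the Airn start and held 31 of the 143 CpGs of the intron, where a window of this length held a median of 2.
Igf2r promoter: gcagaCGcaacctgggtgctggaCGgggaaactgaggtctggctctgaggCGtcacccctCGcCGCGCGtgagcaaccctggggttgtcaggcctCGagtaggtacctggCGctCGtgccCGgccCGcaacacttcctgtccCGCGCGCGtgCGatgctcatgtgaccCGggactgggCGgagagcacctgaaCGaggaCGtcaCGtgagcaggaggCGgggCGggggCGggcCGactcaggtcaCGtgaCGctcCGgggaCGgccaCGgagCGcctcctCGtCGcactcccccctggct
Airn promoter: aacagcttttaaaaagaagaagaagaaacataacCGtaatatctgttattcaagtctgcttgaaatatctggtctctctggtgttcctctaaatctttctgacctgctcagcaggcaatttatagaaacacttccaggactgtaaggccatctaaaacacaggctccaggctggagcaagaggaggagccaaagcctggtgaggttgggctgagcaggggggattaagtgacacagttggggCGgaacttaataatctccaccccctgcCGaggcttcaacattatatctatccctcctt
Igf2r intron 2, CpG-rich window: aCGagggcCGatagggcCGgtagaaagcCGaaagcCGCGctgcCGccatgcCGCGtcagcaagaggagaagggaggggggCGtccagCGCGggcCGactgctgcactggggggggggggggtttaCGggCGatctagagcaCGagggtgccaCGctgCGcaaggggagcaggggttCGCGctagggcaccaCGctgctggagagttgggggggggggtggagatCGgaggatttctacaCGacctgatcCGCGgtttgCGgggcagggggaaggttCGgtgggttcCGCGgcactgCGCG

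The levels are given in RPM, the reads of a gene scaled to a common total per library, without correction for gene length, so they are compared between groups and not between genes. The libraries held 13183036 to 17921280 reads on genes, and 17.7 to 19.9% of them carried a strain-specific SNP. A value of 0 reads allows up to 3 reads, which is 0.153 to 0.203 RPM. The labelled cell types were checked with marker genes. The sum of 12 fibroblast markers was 35229 to 44759 RPM in MEFs and 554 to 1796 RPM in the 15 pluripotent libraries, with 0 to 6 of the 12 at 0 reads. Relative to MEFs, the median marker reached 0.0177 to 0.356% in 14 pluripotent libraries and 0.747% in M KSR5 replicate 3. The sum of 8 pluripotency markers was 1.40 to 2.29 RPM in MEFs, with 5 of 8 at 0 reads, and 3674 to 7824 RPM in the pluripotent libraries, with none at 0.

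The first question was whether the cluster is expressed at another level in pluripotent cells than in fibroblasts. Igf2r was lower in all 5 pluripotent groups, at 21.7% of the mean RPM of MEFs, and Airn stood at 7.34%. Slc22a2 and Slc22a3 were near 0 reads in all 6 groups. In MEFs, Igf2r had 417, 572 and 445 RPM. It had 133, 103 and 104 RPM in F KSR2, and 75.9, 168 and 44.8 RPM in F KSR4. In the male lines it had 135, 111 and 103 RPM in M KSR3 and 109, 69.9 and 70.2 RPM in M KSR5. TX 2i ESCs had 117, 123 and 89.2 RPM. The lowest MEF library thus lay above the highest pluripotent library, a replicate of F KSR4, and the 5 pluripotent groups overlapped one another. F KSR4 spread most, 3.76-fold between its highest and lowest library.

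In a limma fit of the log2 values of all 18 libraries, Igf2r fell by 2.26 on the log2 scale (standard error 0.26, adjusted p = 3.8e-07) from MEFs to the average over the 5 groups of pluripotent cells. In this comparison 32.5% of all 14632 genes tested were called lower. By group, TX 2i ESCs differed from MEFs by -2.12, F KSR2 by -2.08, F KSR4 by -2.51, M KSR3 by -2.04 and M KSR5 by -2.54, each with a standard error of 0.33 and past the threshold of an adjusted p of 0.05. Each comparison shares the MEF libraries with the others. In the same order, 66.5%, 67%, 65.8%, 67.6% and 67.9% of all genes were called in either direction, so a call alone says little about Igf2r. The median gene was 0.21 higher in the pluripotent groups on the deposited scale and 0.03 higher when the libraries were scaled by their median ratio, under which Igf2r was lower by -2.44. From bulk RNA, fewer transcribing cells and less RNA per cell cannot be told apart. Without M KSR5 replicate 3, where the median fibroblast marker was highest, the log2 difference of Igf2r was -2.24.

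By mean log2 level Igf2r was highest in MEFs, at 8.89 ± 0.24 (SD, n = 3). M KSR3 followed at 6.85 ± 0.21, F KSR2 at 6.81 ± 0.21, TX 2i ESCs at 6.76 ± 0.25, F KSR4 at 6.37 ± 0.96 and M KSR5 at 6.34 ± 0.37 (SD, n = 3 each). After MEFs, the ranges of neighbours in this order overlapped. The primitive endoderm markers, 6 genes, differed between these groups, with a sum of 196 to 231 RPM in M KSR3, 12.96 to 88.1 RPM in the other pluripotent libraries and 184 to 289 RPM in MEFs. The trophoblast list, 6 genes, summed to 5.68 to 15.4 RPM in MEFs and 48.6 to 212 RPM in the pluripotent libraries, and 5 neural genes to 118 to 225 and 48.5 to 182 RPM. Given as a description, the members of the neural, endoderm and trophoblast sums differed in direction. Among the neural genes tested, the log2 difference from MEFs was 4.59 for Pax6, 7.80 for Sox1, 0.26 for Tubb3 and -2.66 for Nes. Among the endoderm genes it was 5.85 for Sox17, 2.40 for Sox7 and 1.93 for Gata4. Pdgfra, Dab2 and Gata6 stood at -4.51, -2.52 and -1.10. Among the trophoblast genes tested it was 9.82 for Tfap2c, 6.28 for Eomes, 2.59 for Cdx2, 2.55 for Hand1 and -2.59 for Gata3. None of the 6 endoderm markers was at 0 reads in a pluripotent library, and up to 1 of the trophoblast or neural markers was. Their part in the level of Igf2r was not tested.

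Airn, the antisense RNA, had 72, 97 and 72 reads in the MEF libraries, or 4.40, 4.94 and 3.78 RPM. TX 2i ESCs had 7, 8 and 4 reads of it. The female lines had 5, 1 and 7 (F KSR2) and 4, 8 and 5 (F KSR4), and male lines 11, 3 and 9 (M KSR3) and 0, 5 and 7 (M KSR5). The highest of these, 0.640 RPM in M KSR3 replicate 1, lay below every MEF library. Summed over libraries, 241 reads in MEFs against 84 in the 15 pluripotent libraries gave a 13.8-fold higher RPM in MEFs, with a 95% interval of 10.7 to 17.9 that covers counting error only. Airn passed the filter on low values through the MEF libraries alone, which favours a difference. It was lower by -4.03 on the log2 scale (standard error 0.63), which is given as a description.

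**Figure D1:**
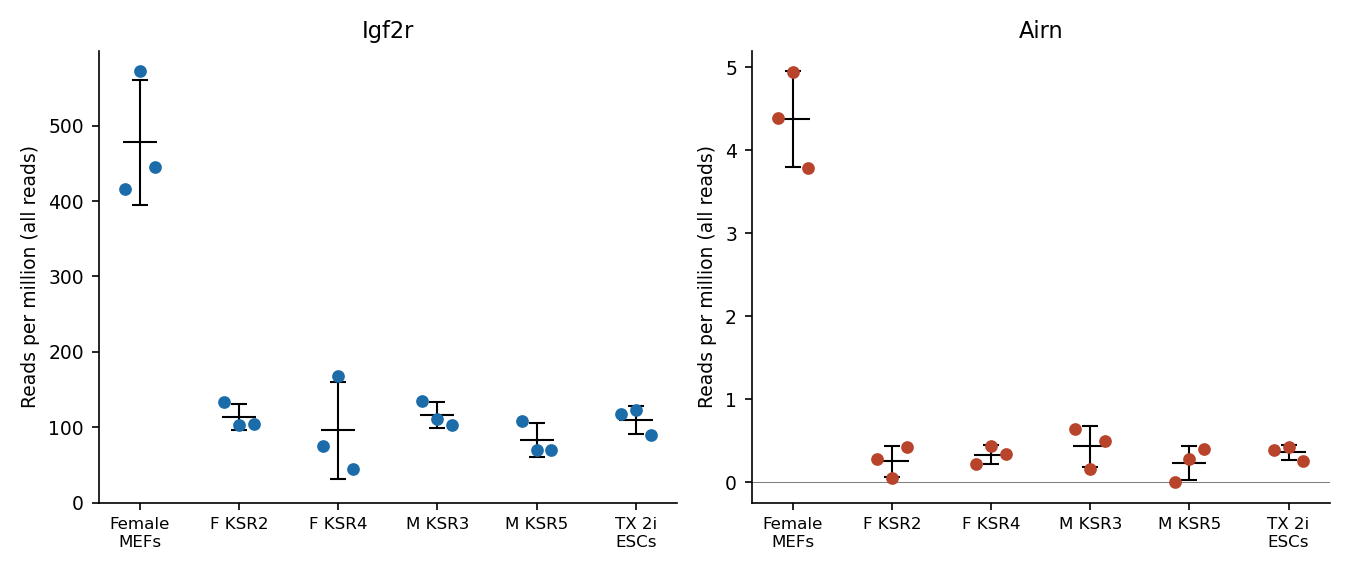
Level of Igf2r (left) and Airn (right) in RPM of all reads, for each of the 3 libraries of 6 groups. Points are libraries, and black lines are the group mean ± SD. The MEF libraries lie at 417 to 572 RPM for Igf2r and at 3.78 to 4.94 RPM for Airn, above all 15 pluripotent libraries for both genes.

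The cation transporters of the cluster were barely detected. Slc22a2, a kidney transporter of organic cations, had 1 read in 1 MEF library and 0 reads in the other 17. Slc22a3, the extraneuronal monoamine transporter, had 0 reads in the 3 MEF libraries, in F KSR4 and in M KSR3. It had 1 read in 1 library of F KSR2, 5 reads in M KSR5 replicate 3, and 3, 3 and 1 reads in TX 2i ESCs. Both genes were under the filter and were not tested, neither had an allelic read in any library, and a difference between groups was not detectable at this depth. Of the 7 transporters of organic cations and carnitine that were listed, which include both, 3 were tested. Slc47a1, an exporter of organic cations, had 0 or 1 read in MEFs and 0.481 to 12.4 RPM in the pluripotent libraries. Slc29a4, a monoamine transporter, had 0.909 ± 0.040 RPM (SD, n = 3) in MEFs and a log2 difference of 3.23 (standard error 0.26). Both passed the filter through the pluripotent libraries alone, so their values are a description. Slc22a5, a carnitine transporter, differed by 0.12 (standard error 0.22) and did not pass.

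The hybrid cells separate the 2 alleles. The question was which allele of each gene the RNA came from. In MEFs, maternal Igf2r reads numbered 625, 983 and 707, against 4, 1 and 2 paternal reads. The maternal share of the allelic reads was thus 99.4%, 99.9% and 99.7%, with a mean of 99.7% ± 0.27 (SD, n = 3). In all 15 pluripotent libraries both alleles were read, with shares from 38.8 to 53.2% and a mean of 47.3% ± 3.73 (SD, n = 15). The share was 45.7, 45.2 and 48.1% in F KSR2 and 48.2, 47.1 and 48.4% in F KSR4. It was 50.8, 48.4 and 47.9% in M KSR3, and 49.5, 53.2 and 41.1% in M KSR5. In TX 2i ESCs it was 51.4, 45.4 and 38.8%. The highest pluripotent library thus lay far below the lowest MEF library, and the pluripotent groups overlapped.

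TX 2i ESCs had a mean of 45.2% ± 6.30, the female lines of 46.3% ± 1.55 (F KSR2) and 47.9% ± 0.71 (F KSR4), and male lines of 49.0% ± 1.59 (M KSR3) and 47.9% ± 6.20 (M KSR5), with SD over 3 libraries. In the limma fit of the log2 ratio of maternal to paternal reads, Igf2r fell by 8.36 (standard error 0.28, adjusted p = 5.7e-14) between MEFs and the pluripotent groups. In this fit 7.41% of 8812 genes were called lower and 22% in either direction. Each group differed from MEFs by -8.26 to -8.49, where 11.3% of genes were called lower for TX 2i ESCs, 4.99% for F KSR2, 3.56% for F KSR4, 4.02% for M KSR3 and 2.81% for M KSR5. Only 4 of the 8812 genes had a decrease as large, namely Meg3, Grb10, H19 and Ccl9, of which Ccl9 was named after its value was seen. The exact two-sided permutation test of the share gave p = 0.1 for each group against MEFs, the smallest p that 3 against 3 libraries allow. The size of the ratio in MEFs rests on 7 paternal reads in all, and with 1 read in place of 0.5 read added to each allele the difference was -7.79.

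The intervals show how precise a single library was. The 95% Wilson interval was 32.0 to 65.2% in F KSR4 replicate 3, with 31 allelic reads, and 41.5 to 52.8% in F KSR4 replicate 2, with 293. It included 50% in 14 of the 15 pluripotent libraries, and the exception was TX 2i ESCs replicate 3 at 30.8 to 47.4%. These intervals cover counting error only. Over the remaining genes of chromosome 17 the maternal share was 52.3 to 52.5% in MEFs and 50.8 to 52.1% in the pluripotent libraries. Igf2r lay below the rest of the chromosome in 14 of 15 pluripotent libraries; the group mean of this difference ran from -6.03 percentage points in TX 2i ESCs to -2.75 in M KSR3. In 13 of the 15 the interval of Igf2r included the value of the chromosome. With the deposited RPM of each allele, which are relative to the total of that allele, the share of Igf2r was lower still, 40.1% in F KSR2 and 40.3% in M KSR3.

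**Figure D2:**
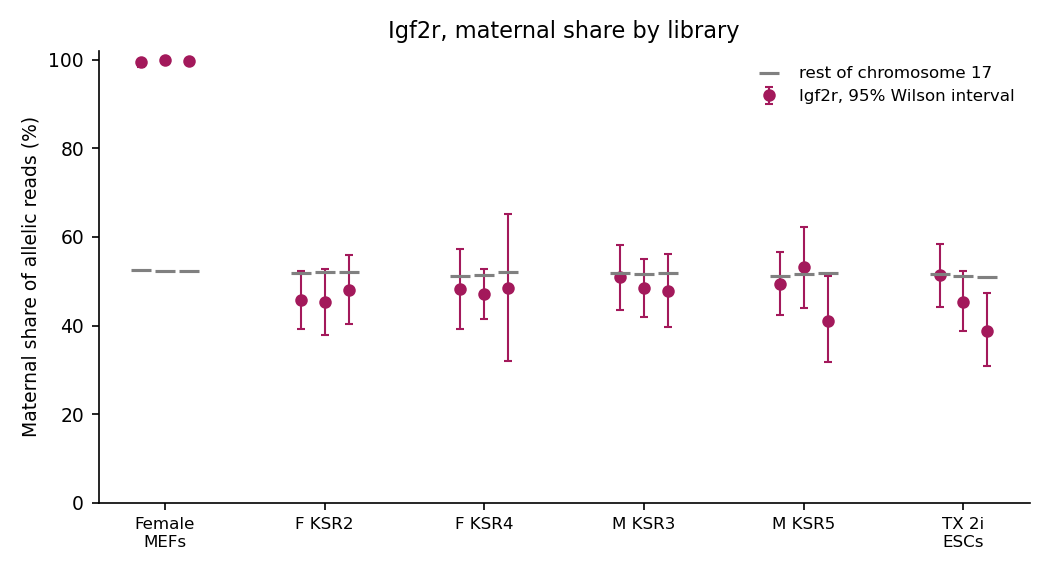
Maternal share of the allelic Igf2r reads in percent, for each library of 6 groups. Points are libraries with their 95% Wilson interval, and grey bars are the share over the remaining genes of chromosome 17. The MEF libraries lie at 99.4 to 99.9% and the 15 pluripotent libraries at 38.8 to 53.2%, beside a chromosome at 50.8 to 52.5%.

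The shift in the share came with opposite differences of the 2 alleles. The maternal allele of Igf2r had 360, 448 and 330 RPM of maternal reads in MEFs, and 8.85 to 67.1 RPM in the pluripotent libraries, all 15 of them below every MEF library. It fell by 3.37 on the log2 scale (standard error 0.37, limma adjusted p = 3.1e-07), where 27.8% of 13795 genes were called lower. The paternal allele had 2.65, 0.544 and 1.13 RPM of paternal reads in MEFs and 12.9 to 98.1 RPM in the pluripotent libraries, all 15 above every MEF library. It passed the filter on low values through the pluripotent libraries alone, which favours a difference. Its log2 difference of 5.46 (standard error 0.44) is therefore given as a description, beside 34.5% of 13768 genes called higher. By summed reads the paternal allele was 41.8-fold higher in the pluripotent libraries, with a 95% counting interval of 20.2 to 104, since MEFs had 7 paternal reads against 1279. The maternal allele was 9.46-fold higher in MEFs, with an interval of 8.81 to 10.2. Each allele is relative to its own total, so the 2 scales are not compared with each other. The share of Igf2r reads that could be assigned to an allele was 8.75% in MEFs and 8.79% in the pluripotent libraries.

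**Figure D3:**
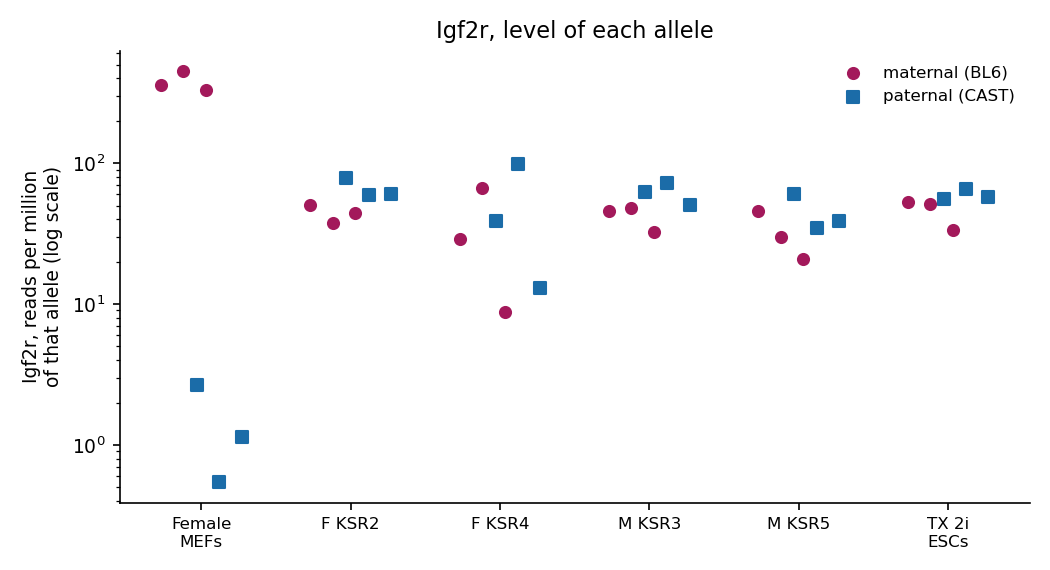
Level of the maternal (circles) and paternal (squares) allele of Igf2r in each library, in RPM of that allele on a log scale. The maternal allele lies at 330 to 448 RPM in MEFs and at 8.85 to 67.1 RPM in the pluripotent libraries. The paternal allele lies at 0.544 to 2.65 RPM in MEFs and at 12.9 to 98.1 RPM in the pluripotent libraries.

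Airn had the opposite allele in MEFs, with 0 maternal reads in each library and 16, 22 and 28 paternal reads. Over the 3 libraries 0 of 66 reads were maternal, which allows a share of up to 4.55%. The pluripotent libraries together had 3 maternal and 7 paternal Airn reads, a maternal share of 30.0% with a 95% Wilson interval of 10.8 to 60.3%. The paternal reads came from M KSR3, with 3 and 1 in replicates 1 and 2, and from TX 2i ESCs, with 2 and 1 in replicates 1 and 2. The maternal reads were 1 each in F KSR4 replicate 3, M KSR3 replicate 1 and TX 2i ESCs replicate 2. F KSR2 and M KSR5 had no allelic Airn read. No pluripotent library reached 5 allelic reads, so the allele of Airn was not tested there. In MEFs 27.4% of the Airn reads were allelic, and in the pluripotent libraries 11.9%. The paternal allele of Airn was 41.2-fold higher in MEFs by summed reads, with a 95% counting interval of 18.9 to 107. Its log2 difference from MEFs was -4.17 (standard error 0.35), beside 28.7% of genes called lower for the paternal allele, and without the MEF libraries it would not have passed the filter.

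The pluripotent groups were then compared among themselves. Igf2r did not pass the threshold in any of these comparisons, neither by level nor by allele ratio. In the 4 lines of KSR-iPSCs its level differed from TX 2i ESCs by -0.17 (95% interval -0.74 to 0.40, limma adjusted p = 0.71), where 23% of genes were called. Its log2 allele ratio differed by 0.15 (-0.47 to 0.77, adjusted p = 0.80), where 20.9% of genes were called. Between the 6 female and the 6 male KSR-iPSC libraries, the level differed by less than 0.01 (-0.61 to 0.60), with 2.87% of genes called. Their allele ratio differed by -0.08 (-0.63 to 0.48), with 16.8% called. Both take the library as the unit, although each sex had 2 lines, so they do not measure the spread between lines. Taking the mean of each line as the unit left 4 genes called by level. All lines of a sex also came from a single embryo, so sex cannot be told apart from embryo. F KSR2 exceeded F KSR4 by 0.44 in level (-0.28 to 1.16), with 1.14% called, and M KSR3 exceeded M KSR5 by 0.51 (-0.21 to 1.23), with 4.48% called. The allele ratio differed by -0.09 (-0.88 to 0.69) between the female lines and by 0.07 (-0.72 to 0.85) between the male lines, with 9.8% and 13% of genes called. Without F KSR4 replicate 3, which had the fewest reads on genes, the level of Igf2r in F KSR2 and F KSR4 differed by -0.01. Airn had too few reads for these comparisons, and its log2 level in KSR-iPSCs differed from that in TX 2i ESCs by -0.49 (-1.88 to 0.91).

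H19, Grb10 and Meg3 are 3 other genes with maternal expression in MEFs, and they were set beside Igf2r to show where the cluster differs. H19 is a noncoding RNA, Grb10 encodes an adaptor that restrains growth signals, and Meg3 is a noncoding RNA of the Dlk1-Dio3 cluster. In MEFs the mean maternal share was 99.89% for H19, 99.96% for Grb10 and 99.99% for Meg3. In M KSR5 the share was 88.8% ± 12.998 for Grb10 and 87.9% ± 7.33 for Meg3, and in M KSR3 42.9% ± 7.14 and 19.1% ± 2.81 (SD, n = 3 each). Igf2r was at 47.9% and 49.0% in the same lines. The log2 allele ratio differed between M KSR3 and M KSR5 by -3.83 for Grb10 (standard error 0.65, limma adjusted p = 0.00043) and by -5.08 for Meg3 (0.43, adjusted p = 1.8e-07). For H19 it differed by 0.91 (0.53, adjusted p = 0.40) and for Igf2r by 0.07 (0.36, adjusted p = 0.98). Whether these differences differ between the genes was not tested. Meg3 also differed between KSR-iPSCs and TX 2i ESCs, by 1.76 (0.34, adjusted p = 0.00068).

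The neighbours of the cluster were examined to see whether the allele shift reaches further. A window of 500 kb on each side of Igf2r and Airn held 21 other genes of the table, including Slc22a2 and Slc22a3. Of these, 7 had at least 5 allelic reads in every library: Agpat4, Map3k4, Mrpl18, Tcp1, Acat2, Wtap and Sod2. All 7 were read from both alleles, with a mean maternal share of 41.1 to 61.4% in MEFs and 36.9 to 61.2% in the pluripotent libraries. In the fit of the allele ratio, 2 of the 7 were called, where 22% of all genes were. Agpat4, a lipid acyltransferase gene at 1 edge of the window, went from 57.9% ± 5.94 (SD, n = 3) to 36.9% ± 8.70 (SD, n = 15), and its log2 allele ratio differed by -1.25 (standard error 0.20, limma adjusted p = 0.00011). Acat2, which encodes an acetyl-CoA acetyltransferase, went from 41.8% ± 5.10 to 50.4% ± 3.76, a difference of 0.50 (0.14, adjusted p = 0.014). Tcp1, a chaperonin subunit with 7784 to 14927 reads per library, stood at 41.1% ± 1.86 in MEFs and 39.7% ± 1.49 in the pluripotent libraries. Igf2r and Airn were the 2 genes of the window whose MEF reads came nearly all from 1 allele, among those with at least 5 allelic reads in each MEF library.

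**Figure D4:**
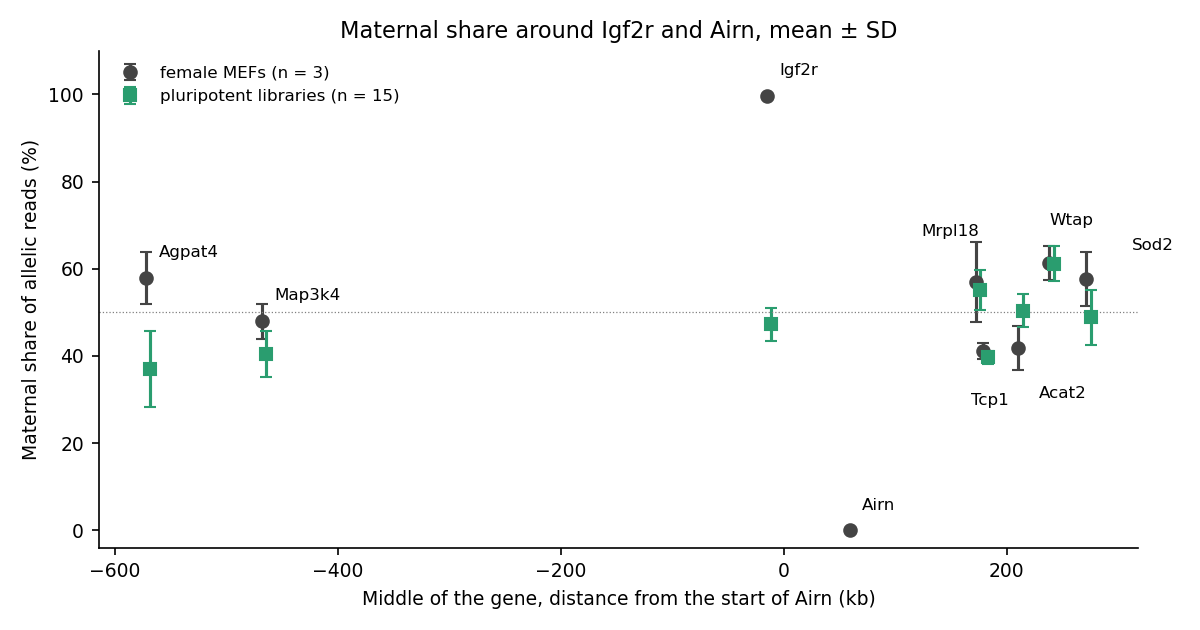
Mean maternal share of allelic reads (± SD) for Igf2r, Airn and 7 neighbouring genes, by the distance of the middle of the gene from the Airn start in kb. Circles are the 3 MEF libraries and squares the 15 pluripotent libraries, and Airn has no square because no pluripotent library reached 5 allelic reads. Igf2r moves from 99.7% to 47.3%, and the 7 neighbours lie between 36.9 and 61.4% in both.

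By level, 9 of the 21 other genes were tested against MEFs, and 7 were called higher and 0 lower, where 42.1% and 32.5% of all genes were called. At an unadjusted p under 0.05, too, none of the 9 was lower. Pnldc1, which encodes a nuclease that trims piRNAs, and Acat3 passed the filter through the pluripotent libraries alone, and the log2 difference of Pnldc1, 5.22 (standard error 0.21), is a description. Of the other 7, 6 were higher. Sod2, the mitochondrial superoxide dismutase, rose by 1.94 (standard error 0.21, limma adjusted p = 1.8e-07). Mrpl18, Wtap, Map3k4, Tcp1 and Acat2 rose by 1.18, 0.99, 0.99, 0.75 and 0.66. With limma-voom on reads scaled by the median ratio, Acat2 stood at 0.47 and no longer passed, nor did it without MEF replicate 1 or 2, at 0.55 and 0.61, or when all genes were kept without the filter, at 0.66. Acat2 and Acat3 are similar in sequence and may share reads. Agpat4 and Acat3 did not pass, with 0.37 and 0.28, although Agpat4 did without F KSR4 replicate 1, at 0.43. The other 12 genes, among them Mas1, whose gene overlaps Airn on the opposite strand, and Plg, were under the filter.

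Igf2r binds ligands and cargo, and 33 genes of that system were listed by role. Of these, 32 were tested against MEFs: 6 were higher, 17 lower and 9 did not pass, with a median log2 difference of -0.71 beside 0.21 over all genes. Of all genes 42.1% were called higher and 32.5% lower. Igf1 and Igfbp6 passed the filter through the MEF libraries alone, which favours a difference. Of the other 30 genes 6 were higher and 15 lower, with a median of -0.49. Both IGF ligands were lower. Igf2 had 4500 ± 315 RPM (SD, n = 3) in MEFs and 2.62 to 30.4 RPM in the pluripotent libraries, a fall by 9.10 on the log2 scale (standard error 0.40, limma adjusted p = 1.7e-12). Igf1 had 0 to 2.05 RPM in the pluripotent libraries, and its log2 difference of -8.01 (0.67) is a description. Igf1r, the signalling receptor of both, fell by 2.70 (0.31, adjusted p = 4.2e-07). The other receptors were Insr at -0.42 and M6pr, the second mannose-6-phosphate receptor, at -0.10, and neither passed, although M6pr did with limma-voom, at -0.28. M6pr had 148 ± 10.9 RPM (SD, n = 3) in MEFs and 140 ± 20.5 RPM (SD, n = 15) in the pluripotent libraries.

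Among the binding proteins that hold IGFs outside the cell, 5 of 6 tested were lower, Igfbp6 included, and 1 was higher. Igfbp6 passed the filter through the MEF libraries alone. Of the other 5 genes 4 were lower and 1 was higher, beside the 32.5% and 42.1% of all genes. Igfbp7 fell by 8.99, Igfbp5 by 8.07, Igfbp4 by 4.36 and Igfbp3 by 2.35, while Igfbp2 rose by 1.71 and Igfbp6 stood at -6.94. Igfbp1 was under the filter. The 3 genes for the mannose-6-phosphate tag on lysosomal enzymes, Gnptab, Gnptg and Nagpa, did not pass, with 0.01, 0.12 and 0.05. Of 6 genes for sorting and return of the receptor, Gga3, Gga2 and Vps35 were higher by 1.12, 1.01 and 0.25, of which Vps35 did not pass with limma-voom, at 0.07, and Gga1, Vps26a and Vps29 did not pass. The call of Vps35 was also lost at 0.25 when no filter was applied or the 15 pluripotent libraries formed 1 group, and at 0.21 to 0.31 without any 1 of the 3 MEF libraries, replicate 2 or 3 of F KSR2 or M KSR3, or replicate 1 or 2 of M KSR5 or TX 2i ESCs. With limma-voom, Gga1 and Vps29 passed as lower, at -0.49 and -0.55. Gga1 also passed without F KSR4 replicate 2, at -0.35, and Vps29 without F KSR4 replicate 3, at -0.43. Of 10 lysosomal enzymes, 7 were lower and 2 higher, where 32.5% and 42.1% of all genes were. Ctsb, Ctsd, Gusb, Gaa and Ctsl fell by 2.01, 1.95, 1.90, 1.56 and 1.54, and Hexa and Gla by 0.87 and 0.56. Without MEF replicate 2 or 3 neither of the latter passed, with Hexa at -0.83 and -0.75 and Gla at -0.43 both times, nor did Gla with the 15 pluripotent libraries as 1 group, at -0.56. Manba, a lysosomal glycosidase, rose by 2.33, and Neu1 did not pass at 0.08. Tgfb1 and Plaur, whose products bind IGF2R, were lower by -5.47 and -2.86.

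**Figure D5:**
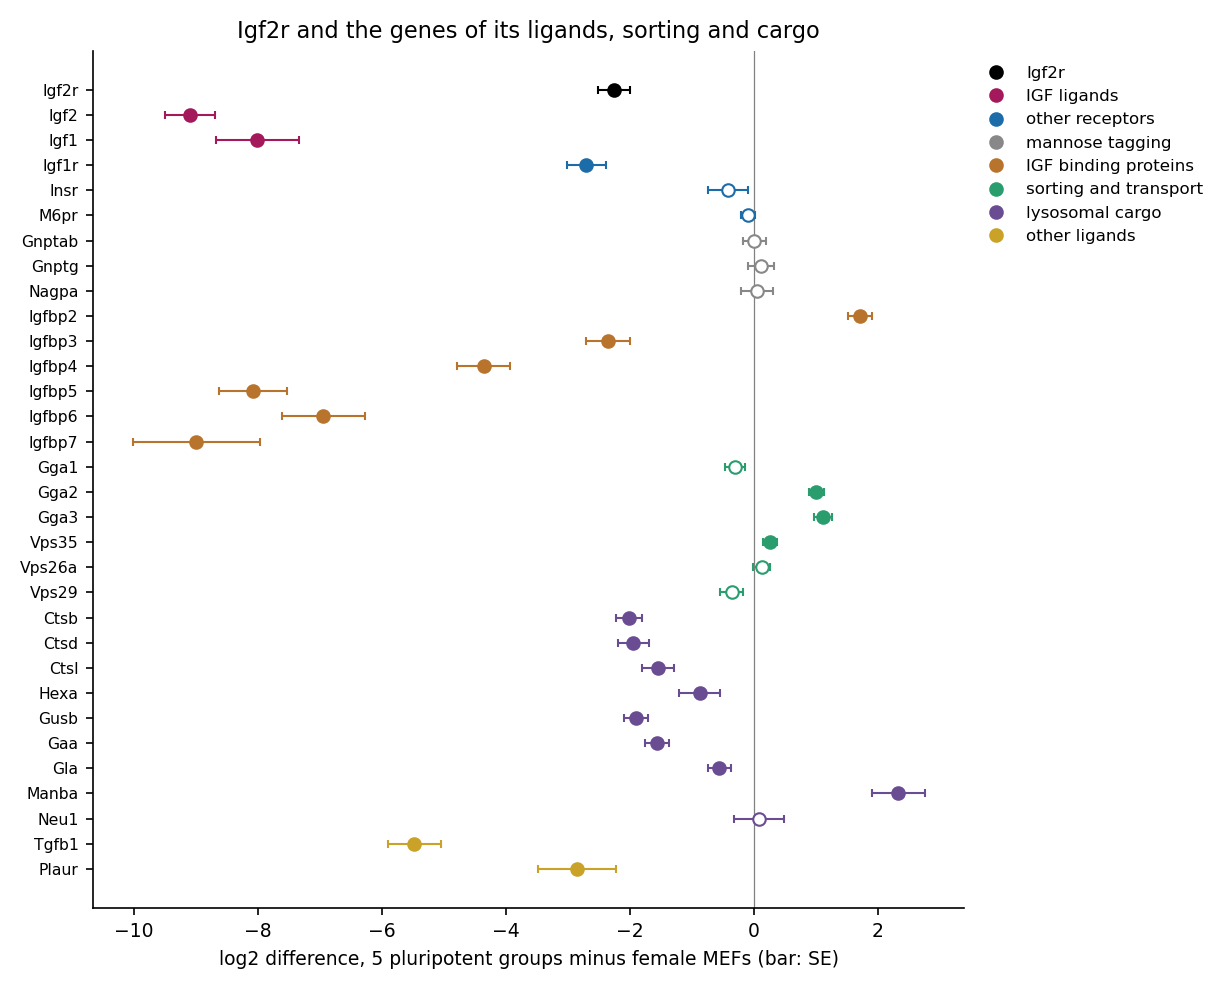
Log2 difference in level between the 5 pluripotent groups and female MEFs for Igf2r and 31 of the 32 tested genes of its ligands, other receptors, tagging, sorting and cargo. Points are limma estimates with their standard error, coloured by role, and filled where the adjusted p is under 0.05. Igf2r lies at -2.26, between M6pr at -0.10 and the ligands Igf2 and Igf1 at -9.10 and -8.01.

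The list was also compared within the pluripotent groups. Relative to TX 2i ESCs, 2 of 32 were higher and 8 lower in KSR-iPSCs, where 23% of all genes were called. Igf1 was higher by 2.08 and Plaur by 2.13. Igfbp5, Ctsb, Insr, Igfbp2, Gusb, Gla, Gga1 and Vps35 were lower by -1.65, -1.03, -0.99, -0.89, -0.72, -0.65, -0.55 and -0.42. Between M KSR3 and M KSR5, 3 of 32 were higher and 1 lower, where 4.48% of all genes were called. Ctsl and Vps35 were higher by 1.21 and 0.96 and Igf2 was lower by -2.52, while Igf1 stood at 3.47, again a description. Chromosome 8, on which Vps35 lies, had a maternal share of 65.1 to 65.6% in M KSR3 and 48.9 to 52.2% in M KSR5. Its part in the level of Vps35 was not tested. Between female and male KSR-iPSCs, with the library and not the line as the unit, 2 of 30 were higher and 0 lower, where 2.87% of all genes were called. Of these, Gla was higher by 0.81. Gla lies on the X chromosome, and the study reports both X chromosomes of its female iPSCs as active. The part of the X chromosome in the level of Gla was not tested. Between F KSR2 and F KSR4, limma called 0 of the 32 and limma-voom 0, with 4 and 5 at an unadjusted p under 0.05, where 1.14% of all genes were called.

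The genes whose pattern was most like that of the cluster were listed, as a description. By Pearson's r of the log2 level with Igf2r over the 15 pluripotent libraries, since MEFs form a separate cluster, r was 0.90 for Fn1, 0.80 for Smurf2, 0.79 for Golga2, 0.79 for Atrn and 0.76 for Sel1l. These are the 5 genes with the highest r over all 18 libraries, of 14631 compared. For Airn, which was near 0 reads outside MEFs, they were Col1a2, Zfp703, Tram1l1, 2610203C20Rik and Col1a1, with 0.77, 0.70, 0.73, 0.66 and 0.69. Points of 1 library share its depth and culture. By maternal share, the genes nearest to Igf2r over the 6 groups were Rnf144a, Rtkn2, Thy1, Apobr and Acp5, with a mean absolute difference of 6.43, 6.49, 6.98, 7.15 and 7.24 percentage points. Their MEF shares were 77.0, 77.6, 96.4, 91.6 and 82.7%. For Airn the share could be compared in MEFs alone, where 23 other genes of 10977 also had 0 maternal reads in each library. Among them, named after their values were seen, were Peg3, Peg10, Sgce, Snrpn, Ndn, Peg12, Zrsr1 and Zdbf2, which are known for paternal expression. Others, such as Rps10-ps1, Gm8394 and Gm8894, had a mean share of 0 in all 6 groups. A lack of maternal reads in MEFs was thus shared by genes with a share of 0 in every group, and why they lack such reads was not tested.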

How the data were processed

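RNA was sequenced as strand-specific polyA libraries. Per the labels and the study's methods, the authors trimmed reads with Trim Galore 0.6.1, aligned them with HISAT2 2.1.0 to GRCm38, split them by SNPs between C57BL/6J and CAST_EiJ, and counted them on annotated mRNA in SeqMonk. The deposited table holds log2 values of 25965 genes in 4 columns per library, for all reads, each allele and unassigned reads. The values behave as log2 RPM without length correction, with 0 reads held at 0.9 read, and whole read counts were recovered from the deposited log2 values. Each allele is relative to its own total. DNA methylation amplicon samples were not analysed here.

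Levels were tested with limma 3.58.1 in R 4.3.3 (trend) on the deposited values, for genes above 0 in at least 3 libraries. Each group had its own mean in a fit of all 18 libraries. The level in female and male KSR-iPSCs was compared in a fit of their 12 libraries, and their allele ratio in the fit of all 18. The log2 ratio of maternal to paternal reads, with 0.5 read added to each, was fitted for genes with at least 5 allelic reads in every library. P-values were adjusted by Benjamini-Hochberg over all genes of a fit, with a threshold of 0.05. Shares have 95% Wilson intervals, and intervals of read ratios are exact. The steps were tested on simulated data. Python 3.11.15 with scipy 1.17.1 served for the rest. Sequences came from RefSeq.

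The genes, lists and neighbours named are the members, genes within 500 kb, the IGF2R and cation transporter lists, H19, Grb10 and Meg3, and the 5 genes most like Igf2r and Airn. The members and lists were chosen with earlier results of these data known. Alternatives were log2(RPM + 1), no filter, limma-voom on reads scaled by the median ratio, a replicate block, the 15 pluripotent libraries as 1 group, another allelic minimum, and leaving out each library. Some listed genes are counted but not reported here by name.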

Additional observations from a re-analysis of the deposited data

Results flagged for a closer look

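Dixon's test was applied to 14 sets of 6 libraries, and chance alone sets apart about 1 in 20 such sets. In the female KSR-iPSCs, the log2 level of Airn in F KSR2 replicate 2 was -4.22, the value of 1 read, and lay apart from the other 5 libraries. In the male KSR-iPSCs, the log2 level of the paternal Airn allele in M KSR3 replicate 1 was 1.10, the value of 3 paternal reads, and lay apart from the other 5. Both rest on 3 reads or fewer.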

How the results depend on the processing

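Against MEFs, Igf2r kept its direction and stayed past the threshold under all 23 alternatives, with a log2 level difference of -2.44 to -2.12, and under all 22 for the allele ratio, at -8.91 to -7.79. Airn ran from -4.15 to -2.03, the latter with log2(RPM + 1).

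The Igf2r difference between female and male KSR-iPSCs was 0.10 with limma-voom, and -0.16 to 0.22 when leaving out each library. Between F KSR2 and F KSR4 its level ran from -0.0076 (without F KSR4 replicate 3) to 0.95 and its maternal allele from -0.0061 to 1.46. The Igf2r allele ratio between KSR-iPSCs and TX 2i ESCs was -0.14 with the deposited allele values and ran from -0.034 to 0.33 on leaving out a library, and between M KSR3 and M KSR5 it was -0.0654 and -0.13 to 0.22. Airn ran from -1.39 to 0.11 between the female lines, its paternal allele there from -0.11 to 0.067, and from -0.39 to 0.15 between KSR-iPSCs and TX 2i ESCs. Of these, the maternal allele between the female lines passed the threshold, at 1.46 without F KSR4 replicate 2, and no other did. With limma-voom, Gnptab, Gnptg, Nagpa, Neu1, Slc22a5 and Vps26a stood at -0.18, -0.078, -0.13, -0.12, -0.068 and -0.061. On leaving out a library, Gnptab ran from -0.062 to 0.13, Gnptg from -0.077 to 0.26, Nagpa from -0.0062 to 0.16, Neu1 from -0.19 to 0.27 and Slc22a5 from -0.00042 to 0.32. The cause was not tested.

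With the deposited allele RPM the maternal share of Igf2r was 40.1% (F KSR2), 41.3% (F KSR4), 40.3% (M KSR3) and 41.5% (M KSR5). Genes called between female and male KSR-iPSCs numbered 390, against 1523 in the fit of all 18 libraries and 232 without the filter. With the mean of each line as the unit, 2 against 2, they numbered 4. Leaving out a library gave 187 to 521 there, 2125 to 4317 between KSR-iPSCs and TX 2i ESCs, 66 to 1660 (without F KSR4 replicate 1) between the female lines and 145 to 585 between the male lines. With limma-voom, the share of calls that were higher went from 55.4 to 72.5% between the sexes and from 50.3 to 31.4% between the female lines.

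The labels tie replicate numbers to no shared batch. Same-numbered libraries correlated at -0.31 to 0.57 over 45 pairs, and 12 of 18 correlated best with their own number, which is a hint from the data. All 3 pairs were above 0.1 for F KSR2 and for F KSR4 with TX 2i ESCs, at 0.28 to 0.45 and 0.23 to 0.52, but not across all groups of any comparison made, so the numbers were not taken as pairs. With the replicate block, 282 genes were called between the female lines in place of 167, and the Igf2r level difference from MEFs was -2.26 and stayed past the threshold, and the block changed no other call except that of Vps29, which passed at -0.36. Depth limits the allele of Airn, with 10 allelic reads in 15 pluripotent libraries, and both Slc22a genes.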

Other observations

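M6pr, which encodes the other mannose-6-phosphate receptor, was read from both alleles in MEFs, with a maternal share of 51.6% ± 4.22, but in F KSR2 the share was 97.9% ± 2.15 (SD, n = 3 each). TX 2i ESCs had 42.6% ± 2.26, F KSR4 54.2% ± 1.78, M KSR3 56.5% ± 1.10 and M KSR5 56.2% ± 1.87, again over 3 libraries. F KSR2 had 28 paternal reads of 1370 allelic reads of M6pr. The remaining genes of chromosome 6, on which M6pr lies, had a maternal share of 93.2 to 98.6% in the F KSR2 libraries too, beside 48.7 to 54.3% in the other 5 groups. The study reports maternal uniparental disomy of this chromosome in F KSR2, whose part in the share of M6pr was not tested. The level of M6pr in F KSR2 was 165 ± 11.3 RPM, beside 148 ± 10.9 RPM in MEFs (SD, n = 3 each). M6pr was singled out after its values were seen.

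Of 25 autosomal genes with a maternal share of at least 95% in MEFs, 8 had a share of 10 to 90% in each of the 5 pluripotent groups.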
